A study of Mus musculus with 8 samples.

Results

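The genes described here are 9 tissue kallikrein genes (Klk5, Klk6, Klk7, Klk8, Klk10, Klk11, Klk12, Klk13 and Klk14) and Spink5, 10 of the 32285 genes in the count matrices. They were taken by gene symbol from a list that was chosen partly on measured values, since earlier results of these data were in view, among them the level of Klk12 in Y and N. Klk12 is therefore described without a p-value and left out of every count of members called, and the tests of the other members are not independent of that choice. Cells came from mouse tongue epithelium, were sorted for viability and were profiled by droplet 3' single-cell RNA sequencing 15 days after induction, with 2 libraries in each of 4 groups. All groups carried Krt14-CreERT, in which the Krt14 promoter places a tamoxifen-activated recombinase in basal keratinocytes, and LSL-rtTA, the doxycycline-dependent activator released by that recombinase. Group N had no further effector transgene, group E carried tetON_E6-E7 (the HPV16 oncogenes E6 and E7), group Y carried tetON_YAP1S127A (a YAP that escapes Hippo pathway inhibition) and group EY carried both. Per the study's methods all 4 groups, controls included, also carried a tetON_H2B-GFP reporter, received tamoxifen into the tongue and doxycycline in the diet, and were adult littermates balanced for age and sex. A library's name gives its group and number (EY2 is the second of EY), and the title of N2 holds a pair of animal numbers, so it may pool animals.

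Kallikreins are secreted serine proteases made as inactive precursors. In stratified epithelia several of them act in a cascade in which one activates the next, and they cleave the desmosomal proteins that hold the outermost cells together, so that surface cells can be shed. Spink5 encodes LEKTI, a secreted multidomain inhibitor of KLK5, KLK7 and KLK14, whose loss in human causes Netherton syndrome, a disease of unrestrained skin shedding and inflammation.

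The 9 kallikrein members lie side by side on the plus strand of chromosome 7 (GRCm38, GENCODE annotation), from the start of Klk14 at 43690418 to the end of Klk5 at 43851181. Klk12 (43768897 to 43773585), Klk11 (43774604 to 43779263) and Klk10 (43781035 to 43785410) are direct neighbours, with 1019 bases between Klk12 and Klk11 and 1772 between Klk11 and Klk10. Klk14 (43690418 to 43695536) and Klk13 (43712567 to 43727534) lie before them. Klk8 (43797577 to 43803826), Klk7 (43811294 to 43816359), Klk6 (43824499 to 43832030) and Klk5 (43841971 to 43851181) follow, with Klk9, no member here, between Klk10 and Klk8.

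The promoter windows of the 3 neighbours are shown because these genes were all higher with the YAP transgene, to very different degrees. Windows run from 250 bases before to 50 bases after the start in RefSeq (GRCm38.p6), which held 11 windows for the 9 kallikrein members. The RefSeq start of Klk12 lies 203 bases from the GENCODE start. The patterns searched, on both strands, were GGAATG, the core bound by TEAD factors, the DNA-binding partners of YAP, and TGANTCA, the AP-1 pattern. Capitals mark GGAATG or its complement.
Klk12, chr7:43768850-43769149, plus strand: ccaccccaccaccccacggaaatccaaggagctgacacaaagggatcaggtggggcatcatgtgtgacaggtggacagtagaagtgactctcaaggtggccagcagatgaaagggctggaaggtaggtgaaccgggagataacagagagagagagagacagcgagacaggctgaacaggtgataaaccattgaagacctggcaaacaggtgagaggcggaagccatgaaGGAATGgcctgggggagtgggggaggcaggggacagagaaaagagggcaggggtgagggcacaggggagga
Klk11, chr7:43774367-43774666, plus strand: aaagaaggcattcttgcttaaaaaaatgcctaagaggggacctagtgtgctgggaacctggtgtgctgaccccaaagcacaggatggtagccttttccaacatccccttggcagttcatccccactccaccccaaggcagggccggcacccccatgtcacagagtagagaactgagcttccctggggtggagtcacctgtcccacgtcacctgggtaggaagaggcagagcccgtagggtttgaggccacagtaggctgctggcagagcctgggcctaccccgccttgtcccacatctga
Klk10, chr7:43780804-43781103, plus strand: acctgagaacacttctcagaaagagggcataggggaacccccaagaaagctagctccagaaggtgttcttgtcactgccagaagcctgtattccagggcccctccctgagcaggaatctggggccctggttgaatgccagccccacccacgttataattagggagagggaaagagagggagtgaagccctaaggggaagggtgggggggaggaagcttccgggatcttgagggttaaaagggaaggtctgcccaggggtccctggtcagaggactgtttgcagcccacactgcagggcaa
In the Klk12 window the single match to GGAATG begins 21 bases before the start. Among the 11 member windows GGAATG was present in 2, that of Klk12 and the second window of Klk6, and TGANTCA in 0. Of all 32851 windows, 14.7% held GGAATG and 7.81% held TGANTCA, so a match in 1 gene is a description of these letters only.

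Epithelial cells were defined as cells with at least 0.5% of unique molecular identifiers (UMIs, each one RNA molecule) from Krt5, Krt14, Krt15, Krt13 and Krt6a and no Ptprc UMI, after the study's limits on genes, UMIs and mitochondrial share. They numbered 12957 of 42550 barcodes, from 170 in EY1 to 4055 in E1, with median depths of 12575 to 23570 UMIs per cell. Yap1 was 32.8 to 47.8 CPM (UMIs per 1000000 UMIs of all epithelial cells in a library) in the 4 libraries without the YAP transgene and 165.6 to 452 CPM in the 4 with it, and transgene reads on mouse Yap1 were not separated. Of 5 tested direct YAP target genes 4 were higher with the YAP transgene by edgeR's quasi-likelihood test (adjusted p under 0.05), and 2 were called without EY1 or without Y2. Between libraries 237 barcode pairs were shared, at most 19 by any pair of libraries. Other marker levels also moved with the groups. The summed level of 8 cornified-layer markers was 74.1 to 124 CPM without the YAP transgene and 354 to 1164 CPM with it. That of 13 immune markers was 45.5 to 68.1 and 116 to 2366 CPM, in the pooled libraries mostly S100a8 and S100a9. Of the others, Retnlg reached 141 CPM in its highest library, Lyz2 131 and Cd74 60.6. The T cell markers Cd3e and Trac stayed at or below 1.54 CPM. The sum of 9 stroma markers was 1119.8 to 1262 CPM in N and 48.2 to 263 CPM in EY, mostly Dcn, and Col1a1, Col1a2 and Col3a1 stayed at or below 2.79 CPM. The sum of 7 gland markers was 96.7 to 565 CPM without and 12.4 to 50.1 CPM with the YAP transgene. The part of these markers in the results below was not tested. With cells holding at least 3 UMIs of Wfdc18, Msln and Muc5b together left out, the number of members called was the same in every comparison below. Cells below that limit were kept, and the other gland markers took no part in it.

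Klk12, a secreted protease with few UMIs in normal tongue, showed the widest separation. It stood at 0.542 CPM in N1 and 0.343 CPM in N2 (27 and 3 UMIs). E2 had 0.909 and E1 2.70 CPM. Then came Y1 with 16.2, EY1 with 33.8, Y2 with 49.5 and EY2 with 94.7 CPM. Every library with the YAP transgene lay above every library without it. The mean of the 2 libraries was 64.2 CPM ± 43.0 (SD) for EY, 32.8 ± 23.5 for Y, 1.81 ± 1.27 for E and 0.442 ± 0.141 for N. Over both backgrounds the log2 fold change with against without the YAP transgene was 5.51 (SE 0.58).

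Klk10, a kallikrein first described as a product of normal breast epithelium, was already present in N, at 68.7 CPM in N1 and 91.8 CPM in N2. E1 and E2 had 61.5 and 62.0 CPM. With the YAP transgene the order was Y1 at 174 CPM, EY1 at 215, Y2 at 297 and EY2 at 392. The groups with and without the YAP transgene did not overlap. The YAP effect, fitted over all 8 libraries with the E6-E7 transgene as a second factor, was a log2 fold change of 1.97 (SE 0.29, adjusted p = 0.00825, edgeR).

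Spink5, the inhibitor, lies apart from the kallikreins on chromosome 18 (43963235 to 44022501, plus strand). Without the YAP transgene it was lowest in N2 at 52.1 CPM, then 61.2 in E1, 63.0 in E2 and 86.7 in N1. With it, the order was Y1 at 159.8 CPM, EY2 at 166, EY1 at 186 and Y2 at 499.6. The 4 libraries with the YAP transgene all lay above the other 4, and Y2 lay far above its replicate. The YAP effect was a log2 fold change of 1.91 (SE 0.33, adjusted p = 0.0146, edgeR).

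Klk11, known as hippostasin, and Klk13, a trypsin-like kallikrein, were higher by much less. From low to high, Klk11 was at 34.7 CPM (N1), 34.9 (E1), 39.6 (N2), 42.6 (E2), 44.1 (Y1), 50.7 (EY2), 57.4 (EY1) and 61.4 (Y2). Klk13 was at 10.7 CPM (N2), 11.8 (E2), 15.6 (N1), 15.8 (E1), 16.7 (EY1), 20.7 (Y2), 28.2 (Y1) and 28.3 (EY2). Neither gene overlapped between libraries with and without the YAP transgene, though E2 and Y1 were close for Klk11, and E1 and EY1 for Klk13. The YAP effect was 0.53 on the log2 scale for Klk11 (SE 0.14, adjusted p = 0.0498, edgeR) and 0.86 for Klk13 (SE 0.22, adjusted p = 0.0467). Both lay just inside the threshold, and both calls were lost in 9 of 16 alternative settings.

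Klk8, neuropsin, was from low to high at 23.8 CPM (N2), 27.0 (E2), 32.3 (N1), 36.3 (Y2), 39.7 (E1), 39.9 (EY1), 58.0 (Y1) and 68.2 (EY2). E1 lay above Y2, so the groups overlapped. Its YAP effect was 0.78 on the log2 scale (SE 0.24) and did not pass the test (adjusted p = 0.0701, edgeR).

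Klk14, a trypsin-like protease that LEKTI inhibits, was at 0.229 CPM (N2), 0.815 (EY1), 1.20 (N1), 1.88 (Y2), 2.32 (EY2), 2.52 (E1), 3.14 (E2) and 10.7 (Y1). The level of Y1 rested on 230 of its 257 Klk14 UMIs that came from 7 cornifying cells. The YAP effect was a log2 fold change of 1.28 (SE 0.91, adjusted p = 0.355, edgeR). Without Y1 every other library was at or below 3.14 CPM.

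The proteases best known from the outer skin were barely detected. Klk7, the chymotrypsin-like desquamation enzyme, had 51 UMIs in all epithelial cells and at most 0.621 CPM in a library. Klk5, the trypsin-like enzyme that can start the cascade, had 10 UMIs and Klk6, neurosin, had 9. Klk5 and Klk6 did not pass the filter on low counts and were not tested. Klk7 had 13 UMIs without and 38 with the YAP transgene, and passed that filter only through Y1 (13 UMIs) and EY2 (23 UMIs), where it was highest, so it is described without a test.

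**Figure D1:**
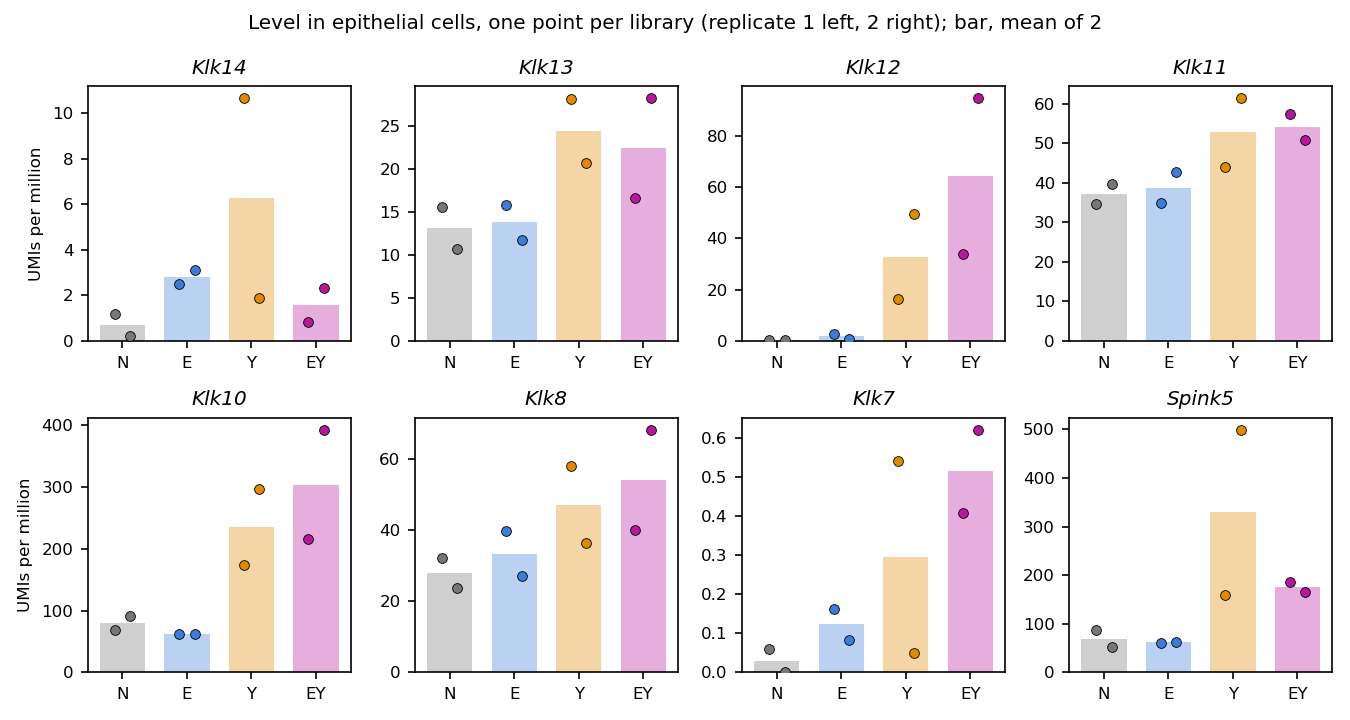
Level of 8 members in epithelial cells (vertical axis, CPM, a separate scale per gene) in groups N, E, Y and EY (horizontal axis). Each point is a library and each bar the mean of 2 libraries. Klk12 spans 0.343 to 94.7 CPM with all Y and EY points above all N and E points, Klk11 spans only 34.7 to 61.4 CPM, and Y1 stands apart for Klk14 at 10.7 CPM.

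In total 8 of the 10 members passed the filter on low counts (all but Klk5 and Klk6), and counts of calls were kept to 6 of them, leaving out Klk12 and Klk7 for the reasons given. Over those 6, the YAP effect was called for 4 (Klk10, Klk11, Klk13 and Spink5), all higher, against 8.98% of the 13555 genes tested in either direction and 5.26% in the higher direction. An unadjusted p under 0.05 was found for 5 of the 6 and for 4252 of the 13555 genes. The same 4 had no overlap between libraries with and without the YAP transgene, which held for 8.13% of the genes tested. The median YAP effect of the 6 was 1.07 on the log2 scale. These shares stand beside a list whose members were not chosen blind to the YAP contrast, so they describe the list and give no support to its direction. Raising the keratin limit to 2% of UMIs left 2 of the 6 called and 1 without overlap. Klk10 and Spink5 stayed called with any 1 library left out, and they were the only 2 called without E1, E2, N1, N2, Y2 or EY2. All genes called for the YAP effect ranged from 324 to 6131 over the alternative settings.

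The question of what YAP adds in normal epithelium was addressed by Y against N. Klk12, chosen on these values, had a log2 fold change of 6.04 (SE 0.90), given as a description. None of the 6 counted members was called by edgeR, against 0.457% of all genes, and DESeq2 called 3. Over the alternative settings, DESeq2 among them, 0 to 1504 of all genes were called in this comparison. Spink5 had a log2 fold change of 2.23 (SE 0.47, adjusted p = 0.107, edgeR), Klk10 1.53 (SE 0.36, adjusted p = 0.132), Klk14 2.89 (SE 0.90, adjusted p = 0.247), Klk13 0.87 (SE 0.32, adjusted p = 0.336) and Klk11 0.49 (SE 0.20, adjusted p = 0.384). All 6 had a positive value and 5 had an unadjusted p under 0.05, as did 1649 of the 13555 genes tested. With cells above 5500 genes or 30000 UMIs kept, 5 of the 6 and 10.2% of all genes were called in this comparison. Without Y1 there was 1 call, that of Spink5.

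Both transgenes together were compared with none in EY against N. Klk12 had a log2 fold change of 7.10 (SE 0.92). Of the 6 counted members only Klk10 was called (1.95, SE 0.36, adjusted p = 0.0182, edgeR), against 18.8% of all genes tested in either direction and 9.31% in the higher direction. Spink5, Klk8, Klk11 and Klk13 had positive values with an unadjusted p under 0.05 and adjusted p from 0.0750 (Spink5, 1.36, SE 0.46) to 0.102 (Klk13, 0.84, SE 0.33). Of the 13555 genes tested, 5287 had an unadjusted p under 0.05 in this comparison. Without EY2, N1 or N2 none of the 6 was called, without Y1 or Y2 there were 2 calls, and without EY1, the library of 170 cells, 3. Over the alternative settings, each library left out among them, 5 to 6042 of all genes were called in this comparison.

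The addition of YAP to E6-E7 was addressed by EY against E, in which 16.4% of genes were called, 7.97% as higher. Klk12 had a log2 fold change of 5.14 (SE 0.78). Klk10 was called (2.40, SE 0.37, adjusted p = 0.0153, edgeR), with 0 of the 6 called without E1, E2 or EY2 and 2 without EY1, Y1 or Y2. All genes called in EY against E ranged from 3 to 5729 over the alternative settings. Spink5 had a value of 1.59 (SE 0.47, adjusted p = 0.0565). This comparison shares the EY libraries with EY against N, so the values of both are given side by side and not as a repeat.

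E6-E7 alone was addressed by E against N, where 0 of the 6 counted members and 0.243% of all genes were called by edgeR. An unadjusted p under 0.05 was found for 0 of the 6 and for 506 of the 13555 genes tested. The value of Klk12 was 1.96 on the log2 scale (SE 0.90). E6-E7 added to YAP, EY against Y, gave 0 calls among the 6 and 0.0443% among all genes (0.0221% higher), with 0 of the 6 and 3169 of all genes at an unadjusted p under 0.05. Spink5 had a value of -0.87 (SE 0.46, adjusted p = 0.288, edgeR) and Klk12 of 1.07 (SE 0.65). The Spink5 value rested on Y2, the library with 499.6 CPM, and was 0.19 without it. Over both backgrounds the E6-E7 effect was called for 0 of the 6 and 0.406% of genes, with 0 of the 6 and 1554 of all genes at an unadjusted p under 0.05. The value of Klk12 was 1.37 (SE 0.51). DESeq2 also called 0 of the 6 in these 3 comparisons. With no filter on low counts the edgeR counts were 1, 2 and 0. Over the alternatives, all genes called numbered 0 to 367 in E against N, 0 to 2117 in EY against Y and 1 to 765 for the E6-E7 effect.

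Whether the YAP effect differs between backgrounds with and without E6-E7 was tested as an interaction. No gene of the 13555 was called. An unadjusted p under 0.05 was found for 1562 of them and for 1 of the 6 counted members, Klk14 (-3.33 on the log2 scale, SE 1.27, adjusted p = 0.395, edgeR). Klk14 was higher in both Y libraries than in both N libraries, and lower in both EY libraries than in both E libraries, but in differentiating cells it was higher in EY (14.97 and 11.05 CPM, from 2 and 16 UMIs) than in E (6.11 and 2.68 CPM, from 48 and 2 UMIs). For Klk10 the interaction was 0.87 (SE 0.50) and for Spink5 -0.64 (SE 0.65), and neither had an unadjusted p under 0.05.

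Cells were next split into layers by fixed limits on marker shares. Cornifying cells had at least 1% of UMIs from Lor, Ivl, Sprr1a, Sprr1b, Sprr3 and Cnfn. Differentiating cells were the others with more Krt13 and Krt4 than Krt5, Krt14 and Krt15, and basal cells the rest. These are ranges on a scale and not types, with 999 cells (7.71%) near the limit between basal and differentiating and 103 (0.795%) near the cornifying limit. Basal cells numbered 11588, differentiating 1300 and cornifying 69, from 1 in EY1 to 22 in EY2. Cornified-layer markers that took no part in the limits summed to 30.3 to 612 CPM in basal, 297 to 1871 in differentiating and 1236 to 27194 in cornifying cells. The basal cells of the groups were not alike. These markers were at 39.2 to 54.2 CPM in N, 30.3 to 64.4 in E, 194 to 612 in Y and 428 to 465 in EY. Of markers outside the limits, 6 differentiating ones summed to 1003 to 1070, 1054 to 1327, 1352 to 1542 and 1907 to 2552 CPM there. The 6 basal ones summed to 1503 to 1826, 1481 to 1852, 1639 to 1693 and 621 to 1260 CPM. The part of this in the YAP effect within basal cells was not tested. In the 2 N and 2 E libraries the cornifying cells also held 4395 to 21626 CPM of gland markers, against 0 to 474 CPM in Y and EY.

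The pooled levels of Spink5, Klk13, Klk11 and Klk14 went up from layer to layer. Cornifying cells stood above differentiating cells in 6 of 8 libraries for Spink5, Klk11 and Klk14, and in 8 of 8 for Klk13. Of the 1038282 UMIs of cornifying cells, Y2 gave 293736 and EY2 381188, so the pooled cornifying values lean on these libraries. Pooled over libraries, Spink5 was at 106 CPM in basal, 303 in differentiating and 2306 in cornifying cells, and was higher in differentiating than basal cells in 8 of 8 libraries. Klk13 was at 14.4, 39.5 and 460.4 CPM, also higher in differentiating than basal cells in 8 of 8 libraries, and Klk11 at 38.8, 62.0 and 166 CPM, again in 8 of 8. Klk14 was at 0.705, 4.34 and 374 CPM, and 62.5% of its 621 UMIs came from the 69 cornifying cells, which held 0.497% of all epithelial UMIs. Klk7 was the most restricted, with 40 of its 51 UMIs in cornifying cells.

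For Klk10 and Klk12 the pooled levels of basal and differentiating cells were close, while the pooled cornifying level stood far above both. Cornifying cells were above basal cells in 6 of 8 libraries for Klk10 and in 7 of 8 for Klk12. The pooled cornifying level leans on Y2 and EY2 here too. Klk10 was at 142 CPM in basal, 191 in differentiating and 2694 in cornifying cells. Its ratio of differentiating to basal level was 1.35 pooled and ran from 0.303 to 3.58 within libraries. In N1 and N2 Klk10 was lower in differentiating cells (63.1 and 28.7 CPM) than in basal cells (69.3 and 94.6 CPM). In Y1, Y2, EY1 and EY2 it was higher in differentiating cells (404, 430.3, 674 and 756 CPM) than in basal cells (123, 213, 188 and 353 CPM). Klk12 was at 19.9 CPM in basal, 27.3 in differentiating and 798 in cornifying cells. Within libraries Klk12 was higher in differentiating than basal cells in 7 of 8, the exception being N2, which had 0 Klk12 UMIs in its differentiating cells, and the median ratio within libraries was 4.83 against 1.37 pooled. The pooled values weight each library by its cells, and EY2 alone gave 2884 of the 3665 basal Klk12 UMIs.

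**Figure D2:**
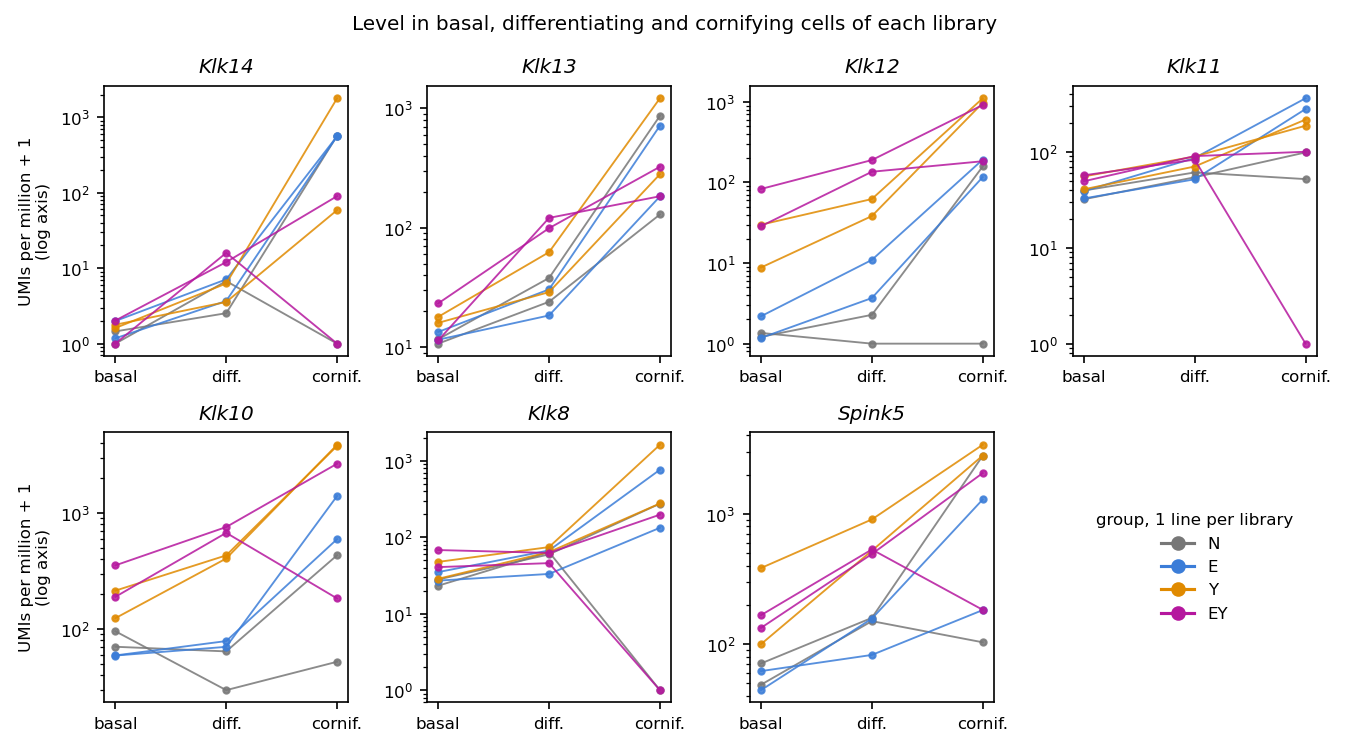
Level of 7 members in basal, differentiating and cornifying cells (horizontal axis) as CPM plus 1 (vertical log axis), with 1 line per library coloured by group. Spink5, Klk11 and Klk13 go up from basal to differentiating cells in all 8 lines, while the N lines of Klk10 go down, and the cornifying points rest on 1 to 22 cells each.

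The YAP effect was then fitted within layers. In basal cells Klk12 had a value of 6.19 (SE 0.68). Of the 6 counted members 2 were called, both higher, against 8.73% of 13284 genes in either direction and 5.34% in the higher direction. These were Spink5 (1.82, SE 0.37, adjusted p = 0.0254, edgeR) and Klk10 (1.69, SE 0.35, adjusted p = 0.0263). Klk11 missed the threshold (0.56, SE 0.15, adjusted p = 0.0556). Without E1, E2 or N1, 0 of the 6 were called in basal cells, and without N2, Y2 or EY1 there was 1 call. All genes called in basal cells ranged from 287 to 6177 over the alternative settings. In differentiating cells, with EY1 left out of the fit because it had only 15 such cells, the same 2 of 6 were called, against 3.61% of 10674 genes, or 2.46% in the higher direction, Klk10 at 3.12 (SE 0.21, adjusted p = 0.000350) and Spink5 at 2.05 (SE 0.24, adjusted p = 0.00260). Klk12 had a value of 4.78 (SE 0.35) there. Klk8 had a value of 0.15 (SE 0.23) there, against 0.78 (SE 0.24) in basal cells. Whether a YAP effect differed between layers was not tested, since the layers share their libraries.

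**Figure D3:**
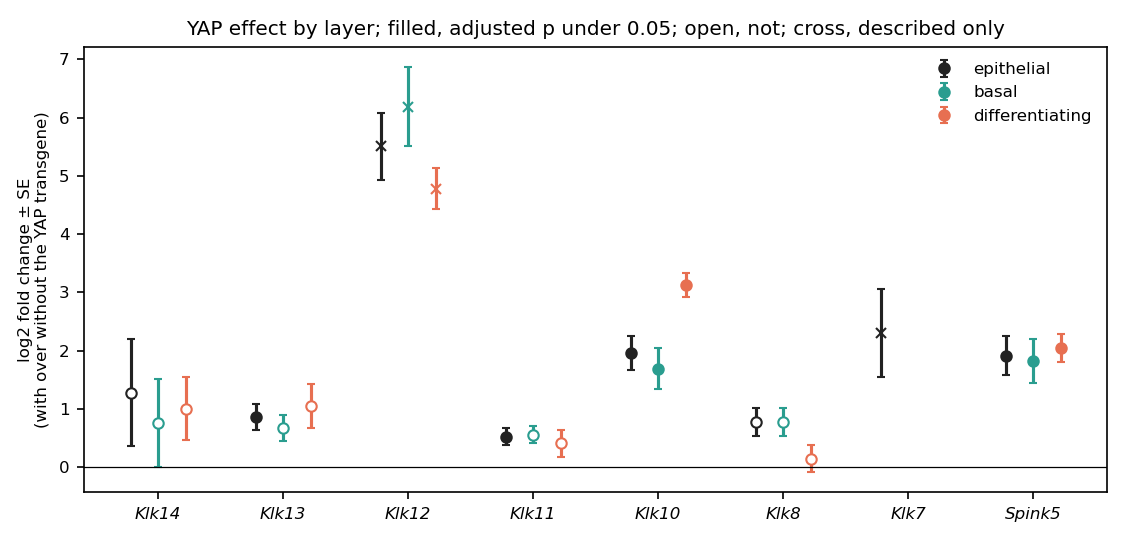
YAP effect of each member (vertical axis, log2 fold change with standard error, libraries with over without the YAP transgene) in all epithelial, basal and differentiating cells. Filled points passed the test at an adjusted p under 0.05, open points did not, and crosses (Klk12 and Klk7) are described without a test. Klk10 (1.97 in all epithelial cells) and Spink5 (1.91) are filled in all 3 populations, and Klk12 (5.51) lies above every other member.

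In cornifying cells no fit was possible, because only EY2 had at least 20 of them. Klk10 was at 51.2 CPM (N2, 4 cells), 182 (EY1, 1 cell), 432 (N1, 4 cells), 594 (E2), 1402 (E1), 2660.1 (EY2), 3789 (Y2) and 3874 (Y1). Klk14 was at 0 CPM in N2 and EY1, 57.9 in Y2, 89.2 in EY2, 561 in E1 and in E2, 569 in N1 and 1786 in Y1. For Klk14 the replicates of N and of Y lay at opposite ends of this range.

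Within basal cells of the libraries with the YAP transgene, Klk8, Klk10, Klk11, Klk13 and Spink5, summed over cells, were higher where a Klk12 UMI was present. The remaining members were not examined in this way, and Klk12 had been chosen on its level in Y and N. Among the libraries with the YAP transgene, a Klk12 UMI was held by 44.0% of basal cells in EY2, 18.8% in EY1, 16.4% in Y2 and 5.90% in Y1. Cells with a Klk12 UMI had 3.26 to 6.22 times the Klk10 level and 3.94 to 8.05 times the Spink5 level of basal cells without one, in 4 of 4 libraries. Klk11 was 2.12 to 2.33 times as high and Klk8 1.38 to 2.21 times as high. Krt14, the basal keratin, differed by 1.04 to 1.22 times, but it took part in the limits that define these cells. Crct1, a cornified-layer gene outside those limits, was 9.93 to 115 times as high. Median depth was 1.15 to 1.21 times that of the other cells in Y1, Y2 and EY2 and 0.73 times in EY1. The cells of a library are not replicates, so these ratios carry no test.

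The balance of inhibitor and proteases was described as the share of Spink5 in the UMIs of all 10 members. From low to high it was 20.7% (EY2), 23.8% (N2), 28.0% (E1), 29.9% (E2), 32.5% (Y1), 33.8% (EY1), 36.2% (N1) and 51.7% (Y2). The 95% exact binomial interval was 21.9% to 25.8% in N2, and 51.01% to 52.43% in Y2, and covers counting error only. The groups overlapped. Klk10 took 28.1% to 42.0% of the members' UMIs without and 30.7% to 48.8% with the YAP transgene. Klk12 took 0.157% to 1.24% without and 3.29% to 11.8% with it, and Klk8 and Klk11 together made a smaller share in each of the 4 libraries with it than in any of the others. A share falls when other members take more of the total. In CPM, Klk11 was at 44.1 to 61.4 with and 34.7 to 42.6 without the YAP transgene, and Klk8 at 36.3 to 68.2 and 23.8 to 39.7.

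Ptprc-positive cells, immune cells that should lack epithelial kallikreins, served as the background of each library. At a common depth of 2000 UMIs per cell, 10.5% to 40.0% of epithelial cells held a Klk10 UMI, against 0.361% to 4.84% of Ptprc-positive cells (44.4% to 85.5% against 0.775% to 10.3% without thinning). Median depths were 12575 to 23570 UMIs in epithelial and 3372.5 to 10871 in Ptprc-positive cells. The Klk10 level of Ptprc-positive cells was 1.56% to 7.28% of the epithelial level of the same library, that of Spink5 2.06% to 4.76% and that of Klk11 1.28% to 7.04%.

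Klk8 did not share this background. In Ptprc-positive cells it was at 16.1 CPM (EY1), 24.9 (EY2), 37.3 (Y2), 42.7 (E1), 58.7 (N1), 61.9 (Y1), 64.2 (N2) and 68.8 (E2), 36.6% to 270.0% of the epithelial level. There were 13.6 to 127 Klk8 UMIs per Klk11 UMI in Ptprc-positive cells and 0.591 to 1.35 in epithelial cells. Among Ptprc-positive cells, those with a UMI of Cd3e, part of the T cell receptor complex, had 91.5 to 135 CPM of Klk8 in the 8 libraries. Cells with a UMI of Csf3r, a neutrophil receptor, had 2.15 to 7.38 CPM in 7 libraries, and cells with a UMI of Lyz2 had 3.86 to 14.3 CPM. Cd3e was at most 1.54 CPM in the epithelial cells.

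**Figure D4:**
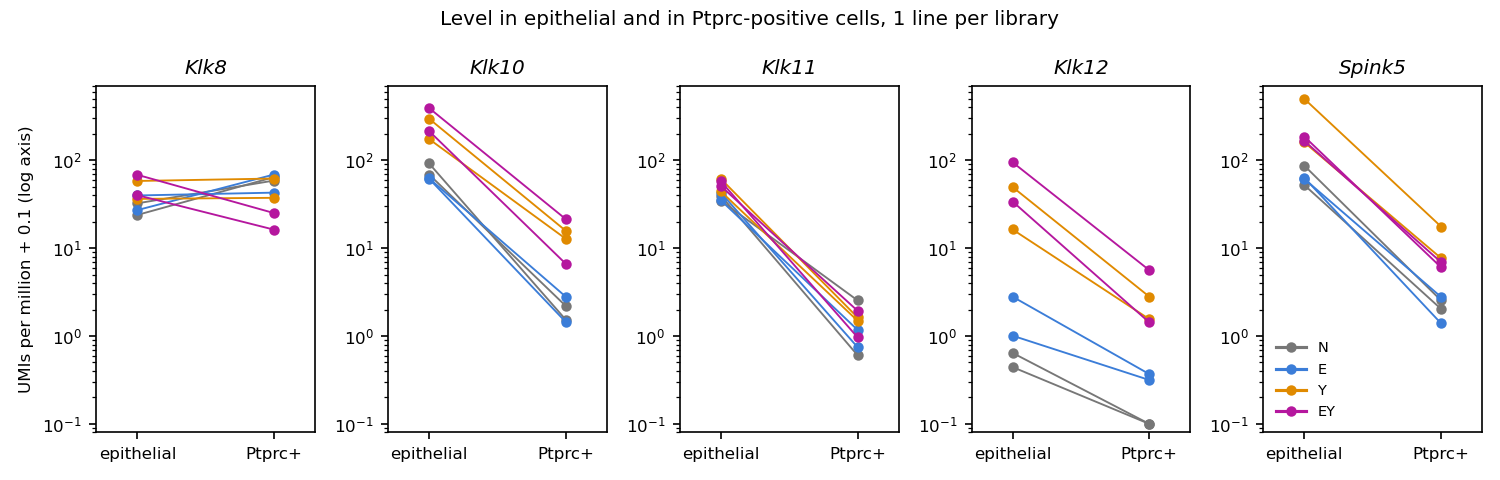
Level of 5 members in epithelial and in Ptprc-positive cells of the same library (vertical log axis, CPM plus 0.1), with 1 line per library coloured by group. For Klk10, Klk11, Klk12 and Spink5 every line drops steeply, whereas the Klk8 lines stay level or go up in N and E, with 16.1 to 68.8 CPM in Ptprc-positive cells.

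Genes with the most similar pattern to the 3 members with the highest mean CPM were sought among 7228 genes, over 16 sums of at least 20 cells. These were the basal cells of each of the 8 libraries, the differentiating cells of all but EY1, and the 22 cornifying cells of EY2. The cornifying sum stood far above the others for most members, and r without it was not computed. For Klk10 the nearest were Lrp10 (Pearson's r 0.98), Nectin2 (0.97) and Rhog (0.95). For Spink5 they were Fam129b (0.96), Rbms1 (0.95) and Tmem40 (0.95), and for Klk11 Atp6v1d (0.95), Spint1 (0.95) and Pdlim2 (0.93). Spint1 encodes a membrane-bound inhibitor of other serine proteases. Among the members themselves the highest r over these sums was that of Klk10 with Klk12 (0.95), and the lowest that of Klk8 with Klk11 (0.64). The sums share libraries and depth, so these are descriptions.

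Other genes of the same biology were read from 4 lists in EY against N, in which 18.8% of all genes were called. The lists were chosen with earlier results of these data known, so the numbers of genes called in them are descriptions. These counts rested on a few libraries, while all genes called ranged from 5 to 6042 over the alternative settings. Without EY2 there were 0 calls among the inhibitors, 0 among the proteases, 1 among the receptors and substrates and 0 among the desmosome genes, without N1 there were 0 in each list, and without N2 there were 2, 2, 1 and 0. Of 12 other protease inhibitors tested, 2 were higher and 2 lower. Slpi, a secreted inhibitor of neutrophil elastase, went from 5.64 and 1.83 CPM in N to 278 and 619 CPM in EY (log2 fold change 6.82, SE 0.88, adjusted p = 0.00867, edgeR). The intracellular inhibitors Serpinb12 (-4.52, SE 1.002, adjusted p = 0.0259) and Csta1 (-2.49, SE 0.58, adjusted p = 0.0291) were lower, Serpinb12 going from 27.4 and 27.8 CPM in N to 4.48 and 0.567 CPM in EY. So the inhibitors did not move one way.

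Of 21 other epithelial proteases tested, 5 were higher and 1 lower, and 12 were called without EY1. Htra1, a secreted serine protease, was at 50.7 and 64.4 CPM in N and 226 and 220.2 CPM in EY (1.97, SE 0.19, adjusted p = 0.00672). Ctsl, a lysosomal cysteine protease, had a smaller difference (0.71, SE 0.13, adjusted p = 0.0183). Of 7 receptors and substrates tested, 3 were higher. F2rl1, which encodes the protease-activated receptor PAR2 that trypsin-like kallikreins can cleave, was at 7.79 and 8.23 CPM in N and 43.6 and 68.4 in EY (2.86, SE 0.54, adjusted p = 0.0184). Tslp, the epithelial cytokine induced downstream of PAR2 in skin, was at 3.37 and 4.92 CPM in N and 59.5 and 29.0 in EY (3.43, SE 0.45, adjusted p = 0.00899), and Cdh1, E-cadherin, differed by 0.51 (SE 0.14, adjusted p = 0.0448), a call lost in 11 of 16 alternative settings. Of 12 desmosome genes tested, 2 were lower and 0 higher, with 1 called without Y1 or without Y2. Dsg2, a desmosomal cadherin, was at 26.1 and 38.9 CPM in N and 16.3 and 14.8 CPM in EY (-1.05, SE 0.27, adjusted p = 0.0360), and its call was lost in 6 of 16 settings, each of them a library left out. The median of the 6 counted members in the same comparison was 1.10 on the log2 scale, with 1 of 6 called.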

How the data were processed

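Droplet 3' RNA sequencing of sorted tongue cells gave 8 matrices of UMI counts, deposited by the authors as made with Cell Ranger 5.0.0 on mm10, per the file headers and labels, with no normalization. Members and lists were chosen with earlier results of these data known. Cells with under 1000 or over 5500 genes, over 30000 UMIs or over 7% mitochondrial UMIs were left out, as in the study, and no doublet caller was run. Ptprc-positive cells had a Ptprc UMI and under 0.5% keratin UMIs. Epithelial UMI counts were summed per library and layer (layers with under 20 cells left out) and tested with edgeR 4.0.16 (R 4.3.3; TMM, filterByExpr, quasi-likelihood F test, Benjamini-Hochberg adjustment over all genes tested, threshold 0.05), with a mean per group for pairwise contrasts and the interaction, and a YAP and an E6-E7 term for the overall effects. SEs are the log2 fold change over the square root of F. CPM values are UMIs over all UMIs of that population. Shares of cells with a UMI were computed for cells thinned to 2000 UMIs. The p-values measure the spread between libraries, 2 per group. Counts of members called cover Klk8, Klk10, Klk11, Klk13, Klk14 and Spink5. All 10 members are named; from the 4 lists, the 3 largest rises and falls in EY against N at 20 CPM or more are named; so are the 3 nearest patterns of the 3 members with the highest mean CPM, over log2 (CPM + 1) of genes at 10 CPM or more. Positions are GENCODE GRCm38, which matched 99.6% of gene identifiers. UMI counts cannot be compared as levels between genes beyond their 3' capture. Alternatives were another test (DESeq2 1.42.0), RLE size factors, no filter, other cell and layer limits and each library left out.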

Additional observations from a re-analysis of the deposited data

Results flagged for a closer look

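Klk10, Klk12 and Spink5 in Ptprc-positive cells, which no comparison used, were higher in all 4 libraries with the YAP transgene than in the 4 without. They were flagged for this separation, and Klk12 had been chosen on its level in Y and N. The share of all genes separated in this way in Ptprc-positive cells was not computed, so the values are descriptions. Klk10 was at 6.53 to 21.3 CPM with and 1.34 to 2.70 CPM without it, from 727 and 53 UMIs. Klk12 was at 1.33 to 5.51 CPM with and 0 to 0.269 CPM without it, from 113 and 3 UMIs. Spink5 was at 5.95 to 17.5 CPM with and 1.295 to 2.69 CPM without it, from 518 and 52 UMIs. In the same libraries Klk10 was at 174 to 392 CPM in epithelial cells, so the immune values moved with the epithelial ones at a small fraction of their size.

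Klk9, which lies between Klk10 and Klk8 and is not a member, was at 1.22 to 2.53 CPM in the 4 libraries with the YAP transgene and 0.457 to 1.10 CPM in the 4 without (151 and 120 UMIs, epithelial cells). It was flagged for this separation, which held for 8.13% of the genes tested.

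Klk14 in all epithelial cells was higher in both Y than in both N libraries and lower in both EY than in both E libraries. Of the 257 UMIs of Y1, 230 came from 7 cornifying cells, and EY1 had 2 UMIs in all. In differentiating cells Klk14 was higher in EY (14.97 and 11.05 CPM, from 2 and 16 UMIs) than in E (6.11 and 2.68 CPM). The interaction was -3.33 on the log2 scale (SE 1.27, adjusted p = 0.395, edgeR) and did not pass the test.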

How the results depend on the processing

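No paired analysis was possible because the labels give no replicate numbers shared between groups: the library numbers 1 and 2 used here are names only and mark no litter or batch. Under the alternatives, Klk10 and Spink5 stayed called as higher in the YAP effect in all epithelial cells (log2 fold changes 1.65 to 2.25 and 1.41 to 2.13 over 16 alternatives each), and the value of Klk12 was 4.26 to 6.12. Klk14 in EY against N turned to -0.33 with a minimum of 200 genes per cell and to -0.11 without EY2, from 1.21, and ranged up to 3.06 with other libraries left out. With a library left out, Spink5 ranged from -1.20 to 0.43 in the interaction and from -1.45 to 0.19 in EY against Y, positive only without Y2. No other member fold change given above for the YAP effect, EY against N, Y against N or EY against E changed sign under an alternative.

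Members called among the 6 counted, where the number changed by over 1.5 times, were as follows. With DESeq2, 3 in EY against N, 3 in Y against N, 2 in EY against E and 5 in basal cells. With no filter on low counts, 4 in EY against N, 5 in Y against N, 1 in E against N, 2 in EY against Y, 4 in EY against E, 1 in the interaction and 5 in basal cells. With no upper limits per cell, 5 in EY against N, 5 in Y against N, 1 in EY against Y, 2 in EY against E, 5 in basal and 5 in differentiating cells. With keratins at 2% or more, 2 for the YAP effect and 1 in basal cells. Leaving out a library gave 0 to 3 in EY against N, 0 to 1 in Y against N, 0 to 2 in EY against E, 2 to 3 for the YAP effect, 0 to 3 in basal and 2 to 3 in differentiating cells. In EY against N, 5 desmosome genes were called with DESeq2, keratins at 2% or no upper limits and 6 with no filter, and 14 other proteases were called with no filter and 11 with no upper limits. The causes were not tested. Genes called in all ranged from 5 to 6042 in EY against N and from 324 to 6131 for the YAP effect over the alternatives. The range was 0 to 1504 in Y against N, 0 to 367 in E against N, 0 to 2117 in EY against Y and 3 to 5729 in EY against E. It was 0 to 672 in the interaction, 287 to 6177 in basal and 65 to 2595 in differentiating cells. The counts of members above thus stand beside very different numbers of genes called, and describe the settings only.

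The YAP effect in cornifying cells could be fitted only with a minimum of 200 genes per cell (N2, E1, Y2 and EY2, 1 residual degree of freedom). With 1 library per group its values are descriptions. They were 2.71 for Klk12, 2.10 for Spink5 and 1.85 for Klk10 on the log2 scale. Negative values were those of Klk14 (-2.83), Klk7 (-1.56), Klk8 (-1.14), Klk11 (-0.44) and Klk13 (-0.31). Depth limits Klk5 and Klk6 (10 and 9 UMIs) most, and the 170 cells of EY1 and the 4 cornifying cells in each N library limit what rests on them.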

Other observations

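Klk8 in Ptprc-positive cells followed lymphoid markers in each group. Cells with a UMI of Nkg7, a gene of cytotoxic granules, had 90.4 to 129 CPM of Klk8 in the 8 libraries, cells with a UMI of Trac had 92.8 to 137 CPM, cells with a UMI of C1qa 0.916 to 15.9 CPM and cells with a UMI of Cd207, a Langerhans cell marker, 0 to 7.45 CPM in 6 libraries. In these Trac-positive cells Klk11 was at or below 3.44 CPM. This pattern was chosen after its values were seen.

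Slpi and Crct1 followed Klk12 among basal cells. In the 4 libraries with the YAP transgene, basal cells with a Klk12 UMI had 3.99 to 12.9 times the Slpi level of those without, and 0.864 to 1.28 times the level of Itga6, a basal integrin. Klk13 was 2.04 to 10.5 times as high in them.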
